A study of Mus musculus with 2 samples.

Results

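The 9 genes described here, Adipoq, Plin1, Fabp4, Cfd, Lpl, Cidec, Car3, Pck1 and Mrap, are commonly used as markers of adipocytes. They were taken by symbol from the 19465 genes measured by spatial transcriptomics, and all 9 were found. The skin came from 8-week-old mice whose depilated back had received 62.5 mg of 5% imiquimod (IMQ) cream daily for 7 days, and both mice carried the floxed S1pr2 allele. The control section was from an IMQ-treated S1pr2 f/f mouse, and the other section from an IMQ-treated S1pr2 f/f K14-Cre mouse. There the keratin 14 promoter drives Cre, so that S1pr2 is deleted in keratinocytes. There was 1 section per genotype, so genotype, mouse and section cannot be told apart and no test between the sections was possible. The intervals below are 95% intervals that cover counting error only.

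Adipocytes store triglyceride in a single large lipid droplet and secrete adipokines into the blood. In mouse skin they form the dermal white adipose tissue, a layer below the dermis that lies on a thin sheet of striated muscle, the panniculus carnosus. Sebaceous glands, which are attached to hair follicles, also make and store lipid and share part of the lipid enzymes with adipocytes, and muscle fibers take up fatty acids for fuel.

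A spot of the array can hold several cells of different types. The S1pr2 f/f section had 1282 spots over tissue and 5315351 unique molecular identifiers (UMIs, each the tag of 1 captured molecule), and the S1pr2 f/f K14-Cre section had 981 spots and 2845826 UMIs, with medians of 3542.5 and 2319 UMIs per spot. These totals are the spots that the deposited positions place on tissue, among them 18 and 6 spots with 0 UMIs, and they exceed the numbers of spots given in the study's methods for both sections. Levels are given as counts per 1000000 UMIs of the same section or group of spots (CPM). The targeted gene S1pr2 had 154 UMIs (29.0 CPM) and 54 UMIs (19.0 CPM), counted over all cell types, so it does not check the deletion in keratinocytes. The tissue differed in composition: a list of 15 muscle genes, led by Acta1, held 2.58% of the UMIs of the S1pr2 f/f section and 8.05% of those of the S1pr2 f/f K14-Cre section, while 16 keratinocyte genes held 5.84% and 1.69%, and 12 sebaceous genes 0.179% and 0.0764%. Chemosensory receptor genes (odorant, pheromone, taste and trace amine), which skin is not known to use at high levels and which served as a background, were also 2.70-fold higher in the S1pr2 f/f K14-Cre section (2715 and 7330 CPM over 1226 genes). Their mean per gene was 11.8 and 17.0 UMIs, whereas the 9 adipocyte genes had 52 to 13277 UMIs and lay above at least 99.4% of the receptor genes in each section.

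The maps of the spots showed where the genes lay and a further difference between the sections. In both sections the adipocyte genes formed a band on the deep side of the skin, next to the muscle. A separate strip of tissue with 128 spots lay below the skin of the S1pr2 f/f K14-Cre section, set off for most of its length by array positions without spots. The strip held 14.5% of the UMIs of that section and 37.5% of its muscle-list UMIs, and muscle genes made up 20.8% of its UMIs. It had Car3 at 9916 CPM (9615 to 10225) and the other 8 adipocyte genes together at 5865 CPM (5633 to 6103), and its lower edge in the map carried a band of adipocyte genes. The keratinocyte list held 0.237% of its UMIs. Its border was drawn as a line on the array after the maps were seen, and whether it was a fold of the same skin or deeper tissue was not tested. The ratios over whole sections include it, so they are also given without it.

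**Figure D1:**
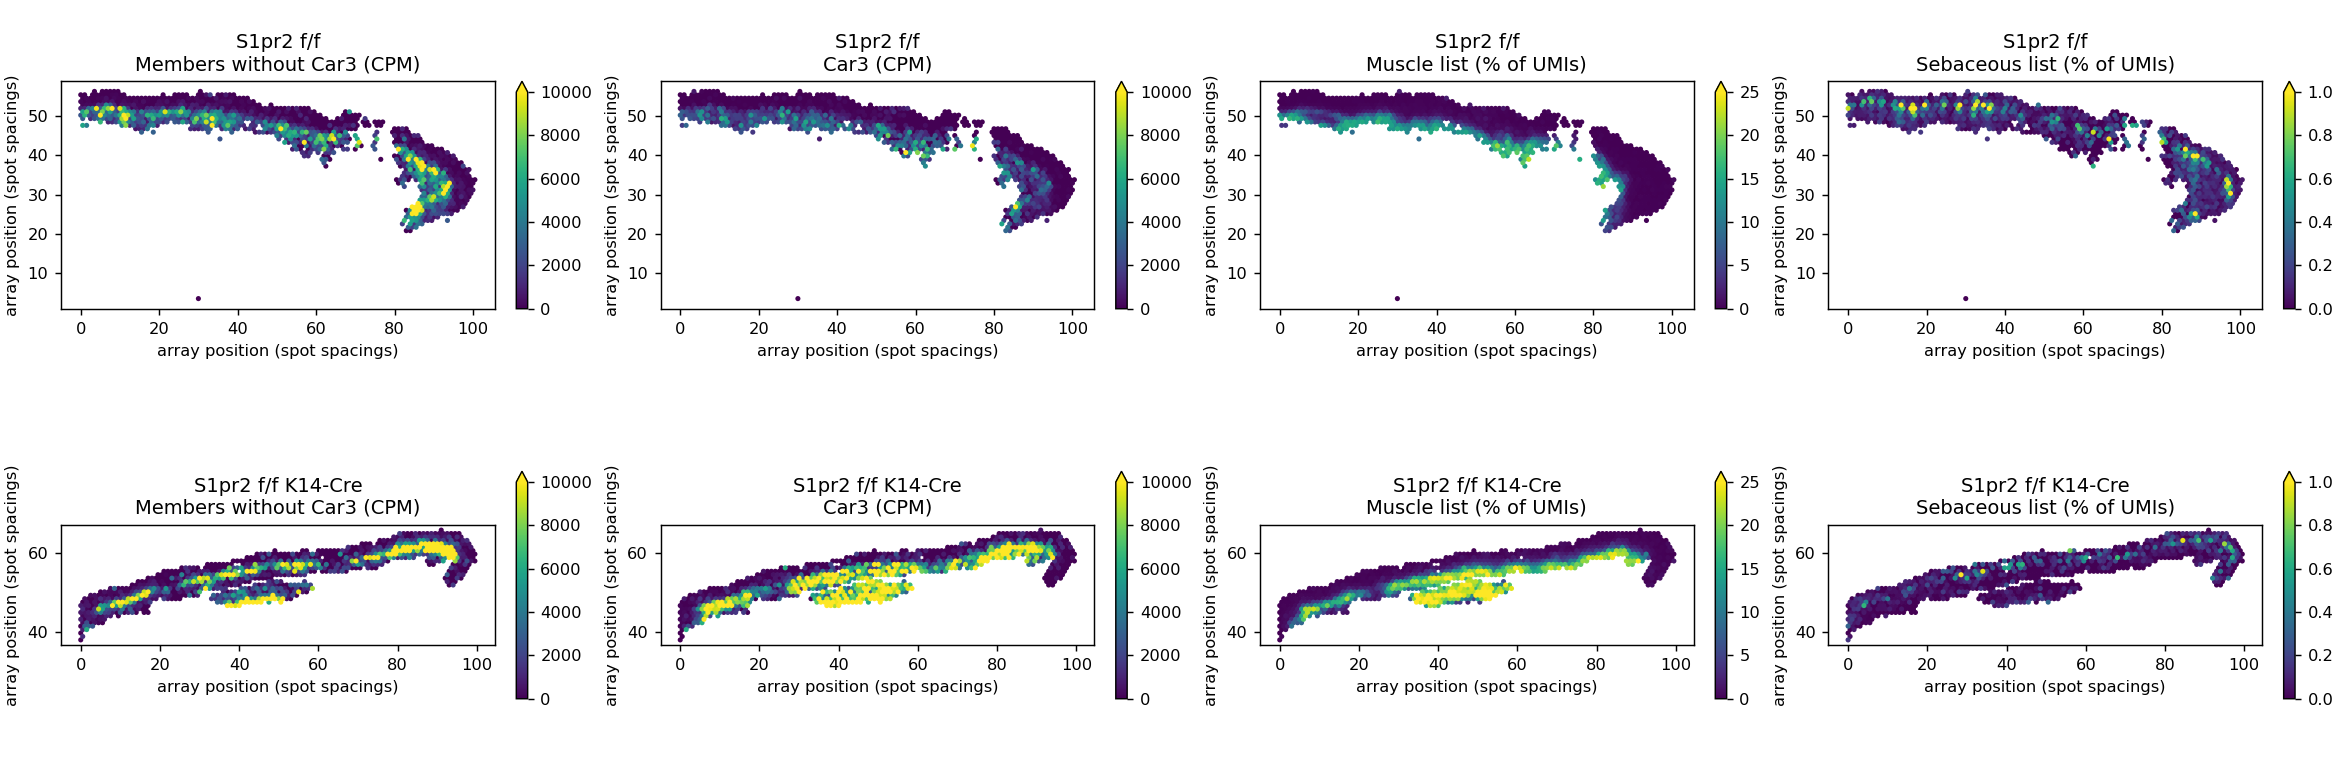
Position of the spots with at least 500 UMIs on the array, in units of the distance between neighbouring spots, for both sections. Colors give the CPM of the adipocyte genes without Car3, the CPM of Car3, and the percent of UMIs from the muscle and sebaceous lists, and values above the end of a color scale share its last color. The adipocyte genes without Car3 form a band beside the muscle, Car3 extends into the muscle, and a separate strip of 128 spots lies below the S1pr2 f/f K14-Cre skin.

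The genes lie on 7 chromosomes of the mm10 assembly (GRCm38.p6), and 3 of them are shown by the 250 bases before the annotated start of the gene. Adipoq names the fat cell most directly, Cfd had the most UMIs apart from Car3 in both sections, and Pck1 supplies glycerol for lipid and had fewer UMIs than any member but Mrap. The sequences are those of RefSeq for chr16:23146286-23146535, chr10:79890603-79890852 and chr2:173152823-173153072, all on the plus strand, written 5′ to 3′. Capitals mark the CCAAT box on either strand.
Adipoq: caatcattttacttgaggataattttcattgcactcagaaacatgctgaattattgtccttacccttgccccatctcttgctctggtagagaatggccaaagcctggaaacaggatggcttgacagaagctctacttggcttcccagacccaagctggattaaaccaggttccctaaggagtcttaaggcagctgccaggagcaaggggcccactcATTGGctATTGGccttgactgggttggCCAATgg
Cfd: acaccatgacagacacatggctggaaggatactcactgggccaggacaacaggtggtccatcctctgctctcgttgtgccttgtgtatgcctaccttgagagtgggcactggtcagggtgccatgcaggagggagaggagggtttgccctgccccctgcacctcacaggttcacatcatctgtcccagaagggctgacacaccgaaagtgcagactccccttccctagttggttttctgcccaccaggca
Pck1: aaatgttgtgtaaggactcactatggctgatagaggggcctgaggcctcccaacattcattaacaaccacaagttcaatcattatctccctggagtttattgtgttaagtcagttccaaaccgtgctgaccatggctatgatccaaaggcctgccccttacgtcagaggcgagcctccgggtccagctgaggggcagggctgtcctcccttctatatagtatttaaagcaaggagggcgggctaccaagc
A CCAAT box (CCAAT, or ATTGG on the other strand) was found 3 times before Adipoq and in none of the windows of the other members, against 33.8% of 32851 mouse windows of this length with at least 1. A window was at hand for 5 of the 9 genes, Adipoq, Cfd, Pck1, Plin1 and Cidec. The letters TTGCNNAA, a form bound by C/EBP factors, stood in windows of Plin1 and Cidec, against 9.56% of all windows. The DR1 element bound by PPARγ with its partner, searched as AGGTCA repeated after 1 base, was found in none of them and in 0.0335% of all windows. The Plin1 window and the Cidec window that held TTGCNNAA overlap the record of their own gene. A match is a description of the letters in a window, and no match says nothing about the factor.

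The secreted factors came first in the comparison between sections. Adipoq encodes adiponectin, the adipokine that improves insulin sensitivity. It had 422 UMIs in 207 spots of the S1pr2 f/f section (79.4 CPM, 72.0 to 87.3) and 337 UMIs in 136 spots of the S1pr2 f/f K14-Cre section (118 CPM, 106 to 132), a ratio of 1.49 (1.29 to 1.73). Without the separate strip the ratio was 1.24 (1.06 to 1.46). Cfd encodes adipsin, the complement factor D secreted by fat cells. It had 4895 UMIs (921 CPM, 895 to 947) and 4940 UMIs (1736 CPM, 1688 to 1785), a ratio of 1.88 (1.81 to 1.96), or 1.58 (1.51 to 1.65) without the strip. Over whole sections both were higher in the S1pr2 f/f K14-Cre section beyond counting error. In the spots low in muscle and keratinocyte genes described below, the ratios were 0.879 (0.720 to 1.07) for Adipoq and 1.13 (1.07 to 1.20) for Cfd.

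The proteins of the lipid droplet did not move together. Plin1 encodes perilipin 1, which coats the droplet and gates lipolysis. It had 514 UMIs (96.7 CPM, 88.5 to 105) and 243 UMIs (85.4 CPM, 75.0 to 96.8), and its ratio of 0.883 had an interval that included 1 (0.755 to 1.03). Without the strip it was lower in the S1pr2 f/f K14-Cre section, with a ratio of 0.795 (0.669 to 0.941). Cidec, whose product fuses small droplets into large ones, had 292 UMIs (54.9 CPM, 48.8 to 61.6) and 221 UMIs (77.7 CPM, 67.8 to 88.6). Its ratio was 1.41 (1.18 to 1.69) and came to 1.04 (0.844 to 1.28) without the strip, which held 37.1% of the Cidec UMIs of that section.

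Of the genes that handle fatty acids, Fabp4 encodes the adipocyte fatty acid binding protein, which capillary endothelial cells and macrophages also make. It had 2472 UMIs (465 CPM, 447 to 484) and 2552 UMIs (897 CPM, 862 to 932), a ratio of 1.93 (1.82 to 2.04), or 1.75 (1.64 to 1.85) without the strip. Lpl encodes lipoprotein lipase, which frees fatty acids from lipoproteins and is made by fat, muscle and macrophages. It had 1511 UMIs (284 CPM, 270.1 to 299) and 801 UMIs (281 CPM, 262 to 302). Its levels were indistinguishable by counting error, with a ratio of 0.990 (0.908 to 1.08), and 0.911 (0.829 to 1.00) without the strip.

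Pck1 encodes the cytosolic phosphoenolpyruvate carboxykinase, which supplies glycerol for triglyceride in fat. It had 220 UMIs (41.4 CPM, 36.1 to 47.2) and 98 UMIs (34.4 CPM, 27.96 to 42.0), a ratio of 0.832 with an interval that included 1 (0.649 to 1.06). Mrap encodes the accessory protein that carries the ACTH receptor to the cell surface. It was the least counted member, with 66 UMIs (12.4 CPM, 9.60 to 15.8) and 52 UMIs (18.3 CPM, 13.6 to 24.0), fewer than the 202 and 225 UMIs of the most counted receptor gene. The Mrap ratio of 1.47 (1.00 to 2.15) barely left 1, and 1.19 (0.771 to 1.81) without the strip included it.

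Car3 stood apart from the other 8 genes. It encodes carbonic anhydrase III, an abundant cytosolic protein of both adipocytes and striated muscle fibers. It had 5186 UMIs in 698 spots of the S1pr2 f/f section (976 CPM, 949 to 1003) and 13277 UMIs in 727 spots of the S1pr2 f/f K14-Cre section (4665 CPM, 4586 to 4745), a ratio of 4.78 (4.63 to 4.94). Its ratio was above that of 97.2% of the genes tested, and it was 3.87 (3.74 to 4.004) without the strip. Car3 made up 33.3% of the UMIs of the 9 genes in the S1pr2 f/f section and 59.0% in the other.

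**Figure D2:**
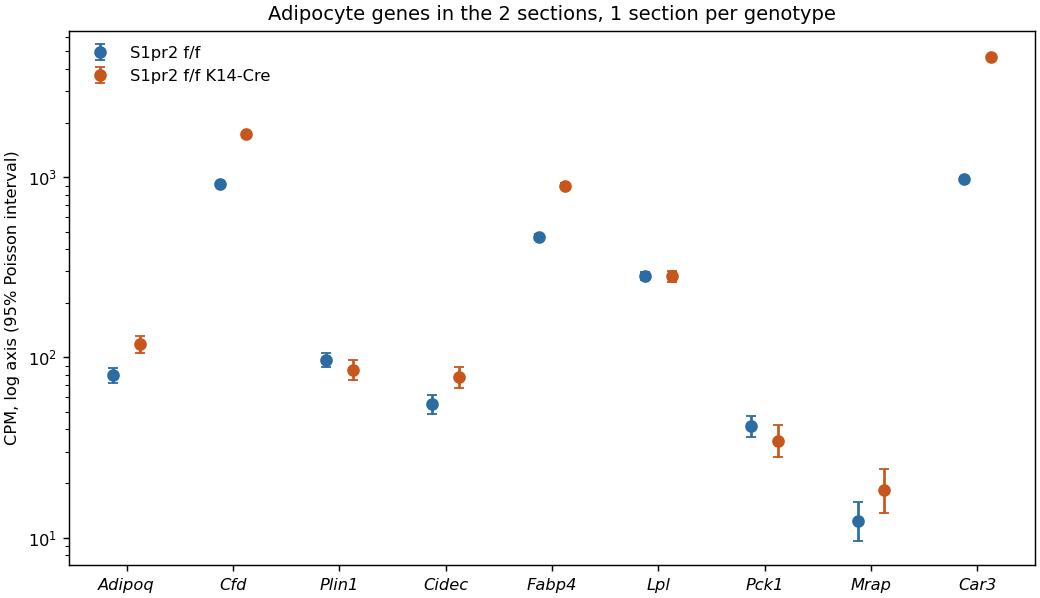
CPM of the 9 adipocyte genes in the whole S1pr2 f/f and S1pr2 f/f K14-Cre sections on a log axis, 1 section per genotype, with 95% Poisson intervals. Car3 shows the widest separation, 976 against 4665 CPM, and Lpl, at 284 and 281 CPM, the least.

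Summed over the 9 genes, the level was 2931 CPM (2885 to 2977) and 7914 CPM (7811 to 8018), a log2 ratio of 1.43 (1.40 to 1.46). Without Car3 it was 1955 and 3248 CPM, a log2 ratio of 0.73 (0.69 to 0.77), and 0.52 (0.48 to 0.56) without Car3 and the strip. The median log2 ratio of the 9 genes was 0.56, beside 0.34 over all 16838 genes with at least 30 UMIs. Car3 was the 1 of 9 members at least 2-fold higher in the S1pr2 f/f K14-Cre section, beside 26.1% of the genes tested, and 0 of 9 were at least 2-fold lower, beside 4.77%. Much of that background came from genes with few UMIs, since among genes with at least 100 UMIs, which 9 of 9 members had or exceeded in sum over both sections, 6.73% were at least 2-fold higher. Cutting each section into 4 segments along its length, the S1pr2 f/f K14-Cre segment was the higher in all 16 pairs for Car3 and Fabp4 and in 8 to 13 of them for the other 7 genes. Segments of 1 section are not replicates.

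The other genes of the adipocyte program gave no common shift. Their list of 30 genes summed to 4152 and 4196 CPM, a ratio of 1.01 (0.988 to 1.03), and had a median log2 ratio of 0.24, with 6 genes at least 2-fold higher and 4 at least 2-fold lower in the S1pr2 f/f K14-Cre section. The shares over all genes tested were 26.1% higher and 4.77% lower, or 6.73% and 6.92% among genes with at least 100 UMIs. The 6 higher were G0s2 (ratio 4.07), Acvr1c (2.80), Thrsp (2.71), Adrb3 (2.42), Nnat (2.11) and Gpd1 (2.09). The 4 lower were Cebpa (0.311), Dgat2 (0.456), Pparg (0.462) and Abhd5 (0.477). Acvr1c and Nnat had only 70 and 66 UMIs over both sections. Of the lipid synthesis genes with the most UMIs, Scd1, a fatty acid desaturase, was at 759 and 917 CPM and Fasn, the fatty acid synthase, at 420 and 511 CPM. Acly, which supplies acetyl-CoA to it, was at 322 and 240.4 CPM, and Dgat2, which makes triglyceride, at 282 and 129 CPM. The fatty acid transporter Cd36 was at 356 and 430 CPM. Of the 2 transcription factors named, Cebpa, which the epidermis also expresses, was at 436 and 136 CPM, a ratio of 0.311 (0.279 to 0.347). Pparg, which sebocytes also express, had 101 and 25 UMIs (19.0 and 8.78 CPM), a ratio of 0.462 (0.286 to 0.722). The keratinocyte list had a ratio of 0.290 (0.287 to 0.292) and the sebaceous list of 0.426 (0.406 to 0.446), and their part in these values was not tested. Leptin (Lep) had 28 and 17 UMIs and Ucp1, the uncoupling protein of brown fat, 20 and 39 UMIs, close to the counts of the receptor genes.

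Several adipocyte genes were often detected in the same spot. The percents below depend on the abundance of each gene and on depth. They were not set against independent placement of the genes, so they do not measure sharing beyond it. Their intervals treat spots as independent, although neighbouring spots resembled each other, and may be too narrow. No UMI of any member was found in 332 of 1282 spots of the S1pr2 f/f section, while 734 spots (57.3%, 54.5% to 60.0%) held at least 2 members and 5 spots held all 9. The S1pr2 f/f K14-Cre section had 150 of 981 spots without any, while 623 (63.5%, 60.4% to 66.5%) held at least 2 and 3 held all 9. As depth differed, every spot with at least 1000 UMIs was also thinned to 1000 UMIs, which left 978 and 870 spots, and 46.8% (43.7% to 50.01%) and 51.8% (48.5% to 55.2%) of them held at least 2 members. In the spots richest in keratinocyte genes, which should lack fat, 24.5% and 42.1% held a UMI of any member other than Car3, against 80.8% and 76.3% of the remaining spots. Those spots had median depths of 3127.5 and 2372 UMIs, against 4399.5 and 2381.5 in the rest. Plin1, Cidec and Mrap had 0 UMIs in the keratinocyte-rich spots of the S1pr2 f/f section, where a count of 0 allows up to 3 UMIs. The members without Car3 were at 89.4 CPM there in the S1pr2 f/f section, against 2174 CPM outside, and at 290.5 CPM in the S1pr2 f/f K14-Cre section, against 3622 CPM. The sets are unlike between the sections. The keratinocyte list held at least 12.8% of UMIs in the S1pr2 f/f spots and at least 5.38% in the others. In spots with at least 5% keratinocyte UMIs the members without Car3 were at 264.9 and 303 CPM, a ratio of 1.14 (0.922 to 1.41).

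Each gene was concentrated where the other members were high. For each gene the spots with at least 500 UMIs were ranked by the share of UMIs from the other 8, and the top 10% of spots, 110 of 1096 and 95 of 947, were set against the rest. The median enrichment was 5.28-fold in the S1pr2 f/f section and 7.07-fold in the S1pr2 f/f K14-Cre section. Within the S1pr2 f/f section it was lowest for Lpl, 2.85-fold (2.50 to 3.24), and highest for Mrap, 7.72-fold (4.51 to 13.0). Within the S1pr2 f/f K14-Cre section it was lowest for Car3, 2.93-fold (2.82 to 3.05), and highest for Plin1, 9.85-fold (7.60 to 12.8). Adipoq was enriched 6.51-fold (5.30 to 7.97) and 5.42-fold (4.32 to 6.78). Over the 36 pairs of genes, the correlation of log CPM across spots had a median of 0.31 and 0.25. As a description over 1096 and 947 spots that share their library and differ in depth, the closest pairs were Cfd with Car3 (0.63) in the S1pr2 f/f section and Fabp4 with Cfd (0.52) in the other, and Pck1 with Mrap was the weakest in both (0.14 and 0.064). Fabp4 and Cfd were detected together in 468 spots of the S1pr2 f/f section, 82.5% of the spots with Fabp4 and 75.2% of those with Cfd.

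The label of adipocyte genes was checked against the list of other fat genes. Of the 10% of spots richest in these 8 members, 55 of 110 in the S1pr2 f/f section and 58 of 95 in the S1pr2 f/f K14-Cre section were also among the 10% richest in the other adipocyte list. The same spots shared 32 and 16 with the spots richest in fibroblast genes, 26 and 19 with those richest in macrophage genes, 27 and 24 with the spots richest in fascia fibroblast genes, 25 and 23 with those richest in endothelial genes, 21 and 20 with those richest in blood genes, and 36 and 36 with those richest in Car3. None was among the spots richest in keratinocyte genes, 0 of 110 and 0 of 95. Unrelated sets of this size would share 10% of their spots. Correlations across spots with at least 500 UMIs gave a different order. In the S1pr2 f/f section every member was closer to the fascia fibroblast and blood lists than to the other adipocyte list. Cfd was at 0.53 and 0.43 against 0.33. In the S1pr2 f/f K14-Cre section Cfd was at 0.31 and 0.26 against 0.34, and the order differed between members.

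The spots richest in muscle genes separated Car3 from most other members, while across all ranked spots every member correlated positively with the muscle list. In the 10% of spots with the highest share of muscle UMIs, Car3 was at 2734 CPM in the S1pr2 f/f section, against 827 CPM outside, a ratio of 3.31 (3.09 to 3.53). The S1pr2 f/f K14-Cre section had it at 9298 against 4122 CPM, a ratio of 2.26 (2.16 to 2.35). Lpl was also higher in these spots, 1.61-fold (1.37 to 1.88) and 1.31-fold (1.06 to 1.61). The other 7 members were not enriched there beyond counting error in either section, and Cfd, Fabp4 and Pck1 were lower in the muscle-rich spots of the S1pr2 f/f K14-Cre section, at 0.728 (0.655 to 0.807), 0.689 (0.592 to 0.798) and 0.177 (0.0211 to 0.657) of the level outside, the last from 2 UMIs. In all, the muscle-rich spots held 12.8% (12.3% to 13.3%) and 16.0% (15.5% to 16.4%) of the UMIs of the 9 genes. They held 8.29% and 8.50% of those of the 8 members without Car3, beside 7.77% and 10.6% of all UMIs. In these spots the muscle list held at least 12.8% of UMIs in the S1pr2 f/f section and at least 22.0% in the other. The sets of the 2 sections are thus unlike in muscle share. The top spots of Car3 and of muscle shared 35 of 110 and 25 of 95, whereas the top spots of the other 8 members and of muscle shared 3 of 110 and 3 of 95. Unrelated sets of this size would share 10%.

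**Figure D3:**
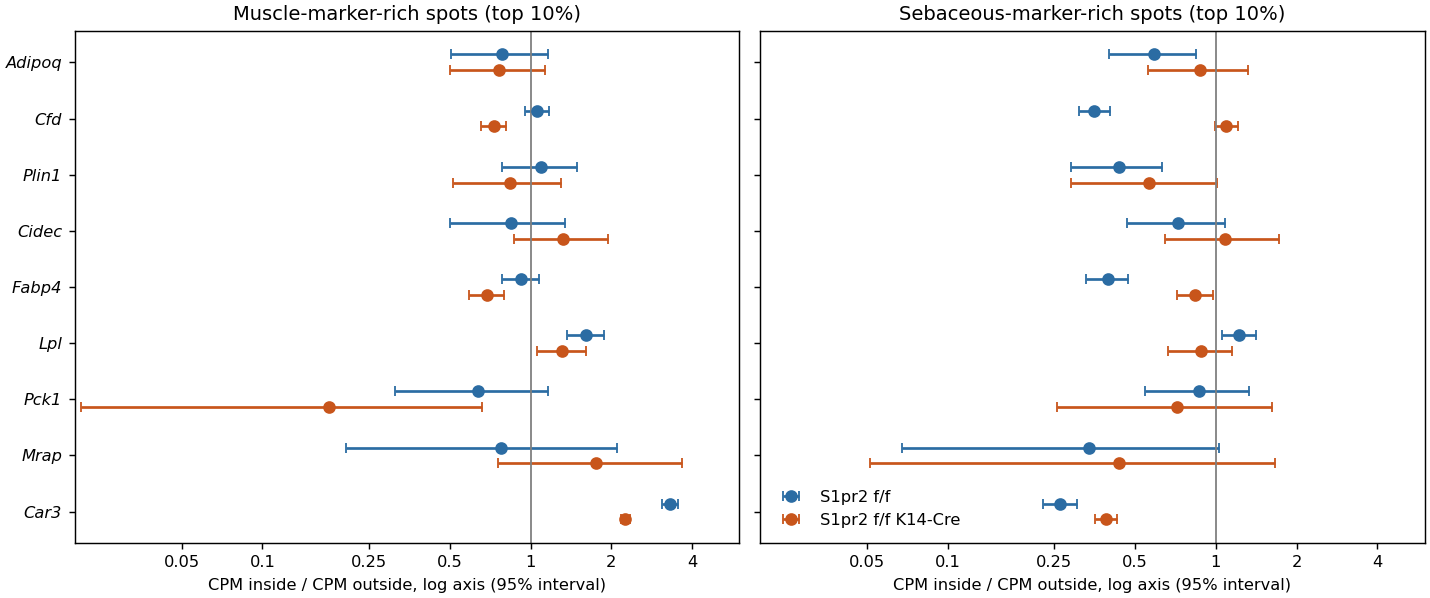
Ratio of CPM inside the 10% of spots richest in muscle genes (left) or sebaceous genes (right) to CPM in the other spots, on a log axis with 95% intervals, for each gene and section. Car3 lies to the right of 1 in muscle-rich spots (3.31 and 2.26) and to the left in sebaceous-rich spots (0.263 and 0.389).

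The change along the muscle share had a different shape for Car3. Spots were cut into 10 groups of nearly equal size by their share of muscle UMIs. The 8 members without Car3 in the S1pr2 f/f section went from 299.9 CPM in the lowest group to 5081 CPM (4863 to 5306) in group 7, with a median of 1.77% muscle UMIs, and were at 2085 CPM in the highest. They were at 386 CPM in the lowest group of the S1pr2 f/f K14-Cre section, at 8665 CPM (8321 to 9020) in group 6, with a median of 4.35% muscle UMIs, and at 2557 CPM in the highest. Car3 had no such peak: it was at 72.9 CPM in the lowest and 2735 CPM in the highest group of the S1pr2 f/f section, and at 271, 9390 and 9292 CPM in the lowest and the last 2 groups of the other. Weighted by UMIs, the median distance to the nearest muscle-rich spot was 1.73 spot spacings for Car3 in both sections, and 2.65 and 2.00 for the other members summed. To the nearest sebaceous-rich spot it was 2.65 and 2.00 for Car3 and 2.00 and 1.73 for the others, beside 1.73 and 2.00 for all UMIs.

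**Figure D4:**
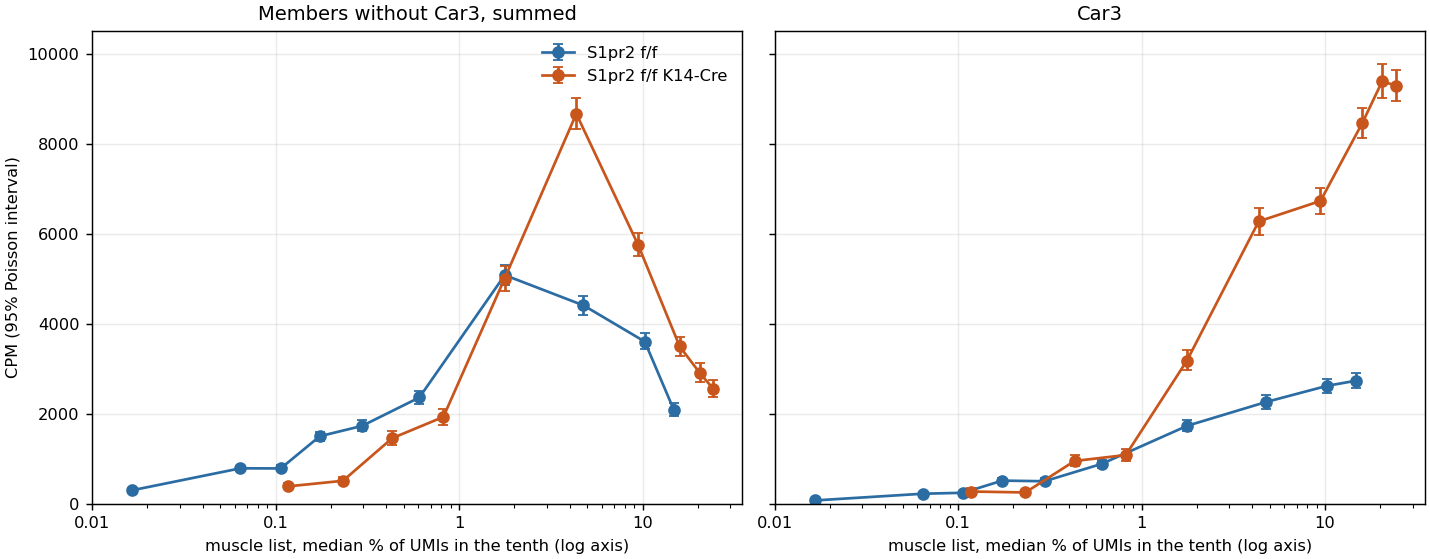
CPM of the members without Car3 (left) and of Car3 (right) in 10 groups of spots ordered by their share of muscle UMIs, against the median share of the group on a log axis, with 95% Poisson intervals. The 8 members peak at intermediate shares, at 5081 and 8665 CPM, and Car3 stays high in the groups with the most muscle.

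Sebaceous-rich spots were set apart in the same way. The 10% of spots richest in the 12 sebaceous genes, those in which the list held at least 0.354% and 0.206% of UMIs, had 5.80% (5.43% to 6.18%) and 5.40% (5.11% to 5.70%) of the UMIs of the 9 genes, beside 12.6% and 8.41% of all UMIs. Without Car3 the shares were 6.87% and 8.20%. The members without Car3 in the S1pr2 f/f section were at 0.512 (0.474 to 0.553) of the level outside these spots, and Cfd, at 0.353 (0.308 to 0.403), and Fabp4, at 0.395 (0.329 to 0.471), were below 1. Lpl was the exception, 1.22-fold higher inside (1.05 to 1.41). In the S1pr2 f/f K14-Cre section the members without Car3 were at 0.973 (0.902 to 1.05), Lpl at 0.882 (0.666 to 1.15) and Cfd at 1.09 (0.990 to 1.20). Fabp4 was below 1 in that section too, at 0.838 (0.716 to 0.974). Car3 was lower in the sebaceous-rich spots of both sections, at 0.263 (0.226 to 0.305) and 0.389 (0.353 to 0.427). The top spots of the 8 members shared 7 of 110 (6.36%, 2.60% to 12.7%) and 8 of 95 (8.42%, 3.71% to 15.9%) with the sebaceous-rich spots. Both intervals include the 10% that unrelated sets of this size would share, but they treat neighbouring spots as independent. The sebaceous list had 9538 UMIs in the S1pr2 f/f section and 2175 in the other, so fewer UMIs define the sebaceous-rich spots of the latter.

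As the sections differed in muscle and keratinocyte content, the ratio was also taken over spots in which each of the 2 lists held under 5% of UMIs, 430 and 432 spots with at least 500 UMIs. There the 8 members without Car3 were at 3278 and 3325 CPM, a ratio of 1.01 (0.975 to 1.06), against 1.66 over the whole sections, and 0.944 (0.906 to 0.983) when the strip was left out too. Within the sum, Fabp4 (1.19, 1.101 to 1.28) and Cfd (1.13, 1.07 to 1.20) were higher in the S1pr2 f/f K14-Cre section, while Plin1 (0.480, 0.379 to 0.603), Lpl (0.649, 0.570 to 0.737), Pck1 (0.612, 0.430 to 0.857) and Mrap (0.512, 0.267 to 0.927) were lower. Adipoq (0.879, 0.720 to 1.07) and Cidec (0.799, 0.613 to 1.03) had intervals that included 1. With the strip left out, Cidec was lower too (0.718, 0.544 to 0.940) and the interval of Cfd included 1 (1.04, 0.980 to 1.098). Car3 was 1.88-fold higher (1.78 to 1.99) in these spots, and 1.77-fold (1.67 to 1.88) without the strip. The same cut need not keep the same tissue in both sections. At least 5% keratinocyte UMIs were found in 403 spots of the S1pr2 f/f section and 111 of the other, where the list was lower throughout. How far the ratios in these spots reflect this was not tested.

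In spots with at least 15% muscle UMIs, 48 and 251 spots, Car3 was at 2610 and 9210 CPM, a ratio of 3.53 (3.17 to 3.94), and 3.45 (3.09 to 3.86) without the strip. The 8 other members were 1.58-fold higher there (1.38 to 1.82), and 1.08-fold (0.938 to 1.26) without the strip. With the strip included and no keratinocyte cut, their ratio was 0.814 (0.759 to 0.873) in spots with under 1% muscle UMIs. It was 1.29 (1.23 to 1.36) at 1 to 5% and 1.825 (1.73 to 1.92) at 5 to 15%. The share of muscle within the spots of at least 15% was not equal between the sections. Fast muscle genes were 3.26-fold and developmental muscle genes 17.0-fold higher in the whole S1pr2 f/f K14-Cre section. The part of muscle content in the Car3 ratio was not tested. More fat or muscle cells in a section and more RNA per cell cannot be told apart in these spots.

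**Figure D5:**
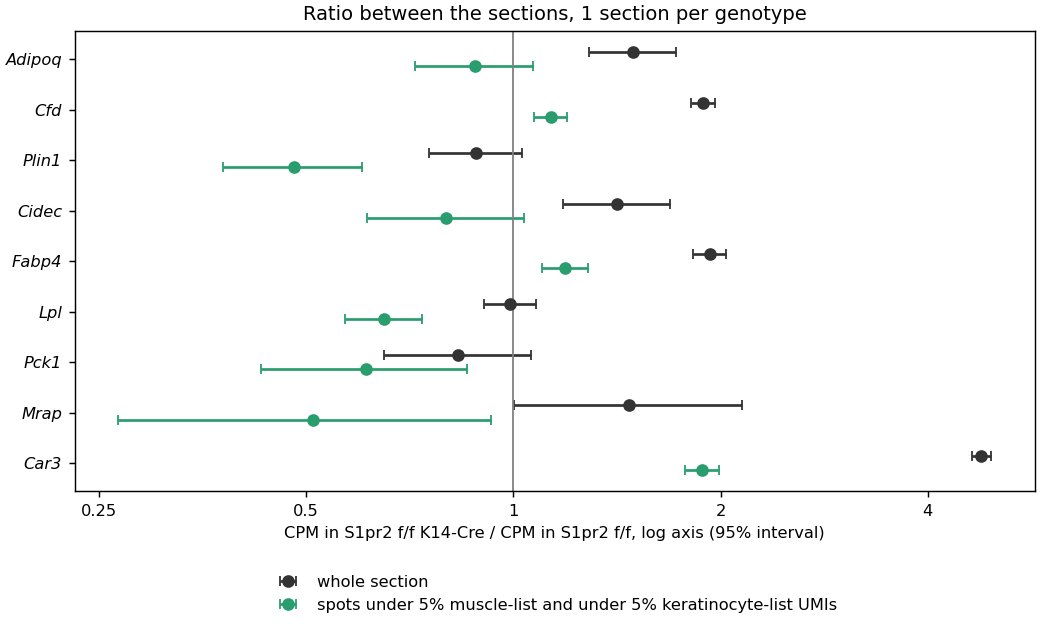
Ratio of CPM in the S1pr2 f/f K14-Cre section to CPM in the S1pr2 f/f section for each gene, on a log axis with 95% intervals, over whole sections and over spots with under 5% of UMIs from the muscle list and under 5% from the keratinocyte list. All 9 ratios are lower in the restricted spots, and Car3 goes from 4.78 to 1.88.

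The genes whose pattern across spots was most like the summed members were mainly muscle genes. Likeness was the lower of the 2 sections' correlations over 1096 and 947 spots, among 5646 genes. The 10 highest were Atp2a1 (0.55), Ckm (0.54), Acta1 (0.53), Myh1 (0.53), Ttn (0.52), Gpx3 (0.52), Tnnt3 (0.51), Tnnc2 (0.51), Des (0.50) and Myl1 (0.50). When Car3 was left out of the sum, 5 of the highest 10 were Tnnt3, Acta1, Slc25a4, Myh4 and Ckm, and the other 5 were C3, Gpx3, Selenop, Vim and Hp, with likeness between 0.36 and 0.41. C3 encodes complement component 3, and Gpx3 and Selenop secreted selenoproteins.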

How the data were processed

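Spatial transcriptomics was performed by the authors on 10 μm sections of formalin-fixed, paraffin-embedded skin with Visium CytAssist on 11 mm arrays. The deposited values are UMI counts for each gene in each spot, to which no normalization was applied. Space Ranger 3.0.0 is named in the matrix header, the submitters' processing notes name mm10, and the study states that Partek Flow was used. The counts are read from probes, so levels of different genes are not compared.

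Counts were summed over spots and divided by the total UMIs of the same spots (CPM). Intervals at the 95% level are exact Poisson (CPM), Clopper-Pearson (shares) or conditional binomial (ratios). Those on shares of spots treat spots as independent. Spots with under 500 UMIs were left out wherever spots were ranked. Both sections share 357 spot barcodes, which name positions of the array and not cells. Spots lie in 1 section each and are not replicates, and no p-value is given. The background takes genes with at least 30 UMIs over both sections. Named were the 9 members, S1pr2, the 6 other adipocyte genes with the most UMIs plus Pparg, Lep and Ucp1, the 10 genes of highest likeness and the leading genes of lists. The genes of highest likeness without Car3 and the other adipocyte genes past 2-fold were added after their values were seen. The members and lists were chosen with earlier results of these data known. Of the lists, Krt79, Elovl6, Myod1, Ly6c1 and Hba-a1 were not in the tables used here. The calculations were tested on simulated data. They were run with Python 3.11.15, numpy 2.4.6, scipy 1.17.1 and pandas 2.3.3. The TMM factors came from edgeR 4.0.16 in R 4.3.3, used for scaling and for no test. Promoter windows are those of RefSeq, cut to the 250 bases before the start.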

Additional observations from a re-analysis of the deposited data

How the results depend on the processing

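No paired analysis was possible because each genotype had 1 section. The log2 ratio of the summed members between the sections was 1.43 and stayed positive under the alternatives run: 1.19 with spots thinned to 1000 UMIs, 1.52 without blood-marker-rich spots, 1.06 with TMM scaling, 0.73 without Car3, which was also the member with the most UMIs, and, chosen after seeing the data, 0.91 without spots of at least 5% muscle UMIs, 0.90 without spots of at least 5% keratinocyte UMIs and 1.17 without the separate strip. Apart from the value without Car3, each of these keeps Car3 in the sum. For the members without Car3, in spots under 5% of UMIs from each of the muscle and keratinocyte lists, the ratio was 1.01 (0.975 to 1.06). With the strip left out too it was 0.944 (0.906 to 0.983), which is below 1. Cut by muscle share alone, with the strip included, it ran from 0.814 in spots under 1% to 1.825 in spots of 5 to 15%. These ratios are not among the recomputed values counted below. In place of 1 member at least 2-fold higher there were 2 without blood-marker-rich spots, Car3 and Fabp4, and 3 at a 1.5-fold threshold, Car3, Fabp4 and Cfd. No alternative counted this way gave a member past the threshold in the other direction. The spots under 5% of UMIs from each list were not counted this way. Plin1 was at 0.480 (0.379 to 0.603) in them. With the strip left out too, Plin1 was at 0.467 (0.367 to 0.588) and Mrap at 0.415 (0.201 to 0.791).

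The percent of member UMIs in sebaceous-marker-rich spots, 5.80% and 5.40%, became 2.70% and 2.01% in the top 5% of spots, 14.5% and 14.98% in the top 20%, 9.66% and 2.20% with 1 cut for both sections, 5.18% and 7.29% with thinned spots, and 6.87% and 8.20% without Car3. In the S1pr2 f/f K14-Cre section it was 5.79% among spots with at least 1000 UMIs and 4.69% with a shorter sebaceous list, added after seeing the data. The percent in muscle-marker-rich spots, 12.8% and 16.0%, became 5.05% and 7.11% in the top 5%, 30.6% and 30.5% in the top 20%, 0.363% and 31.5% with 1 cut for both sections, 15.3% and 14.5% with thinned spots, 8.29% and 8.50% without Car3, 36.3% and 70.1% in spots of at least 5% muscle UMIs, and 15.3% in S1pr2 f/f among spots with at least 1000 UMIs. Values at other cuts differ by construction.

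The percent of spots with at least 2 members, 57.3% and 63.5%, became 43.6% and 44.9% for at least 3 members and 46.8% and 51.8% with thinned spots. In S1pr2 f/f it was 64.6% among spots with at least 500 UMIs and 60.6% in connected groups of at least 20 spots. The median enrichment, 5.28-fold and 7.07-fold, became 6.30-fold and 8.47-fold in the top 5% and 4.02-fold and 5.60-fold with thinned spots, and in S1pr2 f/f K14-Cre 6.19-fold with equal weights and 6.23-fold in the top 20%. Of 84 recomputed values, 37 stayed within the counting interval or count of the main value and 47 moved. A change of direction was defined only for the log2 ratio of the summed members, where 0 values changed it. The ratio without Car3 enters the 84 again as the ratio without the member with the most UMIs. Counts of 52 to 98 UMIs limit Mrap and Pck1. The ratios of single genes also depend on the scaling. With TMM they were 0.765 for Lpl, 0.683 for Plin1 and 0.643 for Pck1. They were 1.15 for Adipoq, 1.14 for Mrap and 1.09 for Cidec, and 1.49 for Fabp4, 1.46 for Cfd and 3.70 for Car3.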

Other observations

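Car3 varied with the muscle genes across spots. Its relation to the oxidative or slow ones differed between the sections, a change not particular to Car3. Over 1096 spots of the S1pr2 f/f section its log CPM correlated with the muscle list at 0.61, with the fast muscle list at 0.58 and with the oxidative or slow list at 0.12, and over 947 spots of the S1pr2 f/f K14-Cre section at 0.70, 0.66 and -0.12. The other members also correlated positively with the muscle list, from 0.12 (Mrap) to 0.46 (Cfd) in the S1pr2 f/f section. They ranged from 0.016 (Pck1) to 0.34 (Fabp4) in the S1pr2 f/f K14-Cre section. In the 10% of spots richest in oxidative or slow genes Car3 was 2.54-fold (2.36 to 2.72) the level outside in the S1pr2 f/f section and 0.843-fold (0.788 to 0.9001) in the other, beside 3.20-fold (2.998 to 3.42) and 2.12-fold (2.03 to 2.21) for the fast list. The members without Car3 summed changed in the same direction. In the spots richest in oxidative or slow genes they were at 1.38-fold (1.30 to 1.47) in the S1pr2 f/f section. In the S1pr2 f/f K14-Cre section they were at 0.429-fold (0.385 to 0.478). For the fast list they were at 1.22-fold (1.14 to 1.30) and 0.749-fold (0.693 to 0.808). These differences between the sections were not tested. Spots share their library and differ in depth, so these values are a description. Car3 was also the member closest to the brown fat list, at 0.31 and 0.39, below its 0.61 and 0.70 with the muscle list. The brown fat list includes the respiratory chain genes Cox7a1 and Cox8b and summed to 391 and 738 CPM.

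Along the 4 segments of each section the 8 members without Car3 ranged from 1795 to 2012 CPM in S1pr2 f/f and from 1776 to 4996 CPM in S1pr2 f/f K14-Cre. The lowest segments, at 1795 (1673 to 1924) and 1776 CPM (1700 to 1854), could not be told apart by counting error. The remaining segments of S1pr2 f/f K14-Cre were at 2605, 4753 and 4996 CPM. Of the 16 pairs of segments, the S1pr2 f/f K14-Cre segment was the higher in 12. Neighbouring spots resembled each other, with a correlation between a spot and the mean of its neighbours of 0.77 for Car3 in both sections, 0.77 and 0.65 for Cfd, and 0.18 and 0.038 for Mrap.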
